A study of Mus musculus with 4 samples.

Results

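The 4 Janus kinases Jak1, Jak2, Jak3 and Tyk2 and the STAT transcription factors Stat2, Stat3, Stat5a, Stat5b and Stat6 were followed in RNA-seq libraries of 32Dcl3-Abl1ko cells. They were chosen by gene symbol and make up 9 of the 23756 genes in the deposited table. Other genes of the family were not analysed here. 32Dcl3 is a mouse bone marrow line that needs interleukin-3 (IL-3) to grow, and in all 4 libraries its Abl1 gene had been edited with CRISPR/Cas9. The groups were Abl1ko/IL3+, cells kept with IL-3, and Abl1ko/IL3-, cells growing without it, with 2 libraries each, which the series describes as biological duplicates. The edited cells were selected after lentiviral delivery of Cas9 with either of 2 guides, and the sources used here do not tie the libraries to a guide or clone, nor do they give the time without IL-3 at harvest. The comparison asks whether the genes of the kinases and factors that IL-3 normally drives changed in cells that no longer needed the cytokine.

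Janus kinases sit on the inner tails of cytokine receptors. When a cytokine pulls receptor chains together the kinases phosphorylate each other, the receptor and the STAT proteins docked on it, which then pair, enter the nucleus and bind DNA. IL-3 acts through its alpha chain and the common beta chain, with JAK2 as the main kinase and STAT5A and STAT5B as the main factors, whereas JAK1 and JAK3 serve the receptors that contain the common gamma chain, TYK2 and STAT2 serve type I interferon receptors, STAT3 the IL-6 and IL-10 families and G-CSF, and STAT6 IL-4 and IL-13. Activation of these proteins is by phosphorylation, which RNA-seq does not measure.

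Stat5a and Stat5b are neighbours on chromosome 11 and share much of their sequence, so the part where reads cannot separate them is shown. In the GENCODE release M21 transcripts (GRCm38) their aligned coding sequences were identical at 90.8% of 2294 positions, against 56.8% to 64.6% for the other pairs within the kinases or within the STAT genes. Of the 50-base windows of coding sequence, 608 occurred in both, which is 25.9% of those of Stat5a and 26.3% of those of Stat5b, while no other pair of members shared any. The longest identical run was 324 bases, from position 571 to 894 of either coding sequence (ENSMUST00000107357 and ENSMUST00000004143). Its first 90 bases are in capitals, after the 15 bases before it:
Stat5a: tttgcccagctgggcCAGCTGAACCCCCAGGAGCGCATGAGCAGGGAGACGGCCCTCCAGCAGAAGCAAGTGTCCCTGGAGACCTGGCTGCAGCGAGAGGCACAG
Stat5b: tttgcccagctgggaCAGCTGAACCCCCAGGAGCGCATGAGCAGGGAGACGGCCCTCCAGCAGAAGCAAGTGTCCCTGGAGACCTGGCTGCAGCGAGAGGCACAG
How the counting treated reads that match both genes is not given in the sources used here, so the levels of these paralogs are uncertain to that extent.

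Stat2 varied most among the libraries, and its promoter is shown for that reason. All 9 members matched a RefSeq promoter (GRCm38.p6, 250 bases before to 50 after the start), Stat5a and Stat5b with 2 each. The letters GAAANNGAAA, or TTTCNNTTTC on the other strand, which spell the core of the interferon-stimulated response element, occurred in the Stat2 window and in none of the other 8, and in 3.44% of 32851 promoters of that length. The STAT site TTCNNNGAA, which reads the same on both strands, occurred in none of the 9 and in 8.30% of all promoters. The match is in capitals and begins at position -222 from the start:
Stat2 (chr10:128270248-128270547, plus strand): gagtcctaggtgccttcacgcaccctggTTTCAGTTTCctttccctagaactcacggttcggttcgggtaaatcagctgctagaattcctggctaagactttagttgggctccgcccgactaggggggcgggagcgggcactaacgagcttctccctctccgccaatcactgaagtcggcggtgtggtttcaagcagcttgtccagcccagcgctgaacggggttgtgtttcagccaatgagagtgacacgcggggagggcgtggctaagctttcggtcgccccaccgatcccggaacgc
A match of letters is a description of the sequence and does not show binding.

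Library totals ran from 48953174 to 60382588 counts, and 16535 genes, all 9 members among them, passed the filter on low counts. The edited gene, Abl1, had 1322 and 2222 counts with IL-3 against 1544 and 2256 without it, which does not tell edited from unedited cells. The labels call the line a pre-B cell. Of the 14 B-lineage genes listed, 9 were in the table. Rag1, which cuts antigen receptor genes, was at 0 to 0.00843 FPKM (fragment counts scaled by gene length and library depth) and Cd79b, a chain of the B-cell receptor, at 6.24 to 10.9 FPKM. Cd79a was at 0.431 to 6.41 FPKM and Vpreb1 at 0.675 to 2.32 FPKM, whereas Mpo, made by myeloid progenitors, was at 135 to 528 FPKM. Abl1ko/IL3+ replicate 1 stood apart in 2 lists of marker genes. The summed macrophage markers, of which 7 of 8 were in the table, were at 293 CPM (counts scaled by library size) there, against 54.6 in Abl1ko/IL3+ replicate 2 and 77.8 and 155 in Abl1ko/IL3- replicates 1 and 2, and the mast cell and basophil markers (8 of 8) at 769 CPM against 125, 182 and 255. Cpa3, Fcer1a and Gata2 carry most of the mast cell sum, at 313, 194 and 221 CPM in that library, whereas Mcpt8, Ms4a2 and Hdc were lower there than in Abl1ko/IL3+ replicate 2, at 19.0, 1.85 and 3.04 CPM against 50.4, 3.40 and 6.47 CPM. Adgre1 and Cd68 carry most of the macrophage sum in Abl1ko/IL3+ replicate 1, at 201 and 74.1 CPM. C1qc was lower there than in Abl1ko/IL3+ replicate 2, at 0.714 against 1.47 CPM. In bulk RNA fewer cells of a type and less RNA per cell cannot be told apart.

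All 4 kinases and all 5 STAT genes were expressed in every library. Per length, as the mean over 4 libraries, Jak2 stood first at 22.2 ± 9.53 FPKM (SD, n = 4), followed by Stat6 at 21.0 ± 7.41, Jak1 at 21.0 ± 10.5 and Stat5b at 18.1 ± 5.20. A second set lay near 11 FPKM, with Stat3 at 12.1 ± 3.44, Tyk2 at 11.5 ± 1.54, Jak3 at 11.1 ± 6.65 and Stat5a at 10.8 ± 1.28. Stat2 was lowest at 3.78 ± 3.49 FPKM, from 0.735 to 8.48. The ranges of neighbours in this order overlapped, and only the step from Stat5a down to Stat2 separated them in full. Jak2 exceeded Stat6 in 2 of 4 libraries and Jak1 exceeded Stat5b in 2 of 4, so the order of the 4 highest genes was not fixed, although Stat5b exceeded Stat3 within each of the 4 libraries. The median gene tested was at 2.66 to 3.68 FPKM, and 8 or 9 members lay above it in each library, Stat2 being the exception in both libraries numbered 2. The steadiest members were Stat5a, with a highest value 1.31-fold its lowest, and Tyk2, at 1.39-fold, while Jak3 spanned 3.07-fold and Stat2 11.5-fold.

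**Figure D1:**
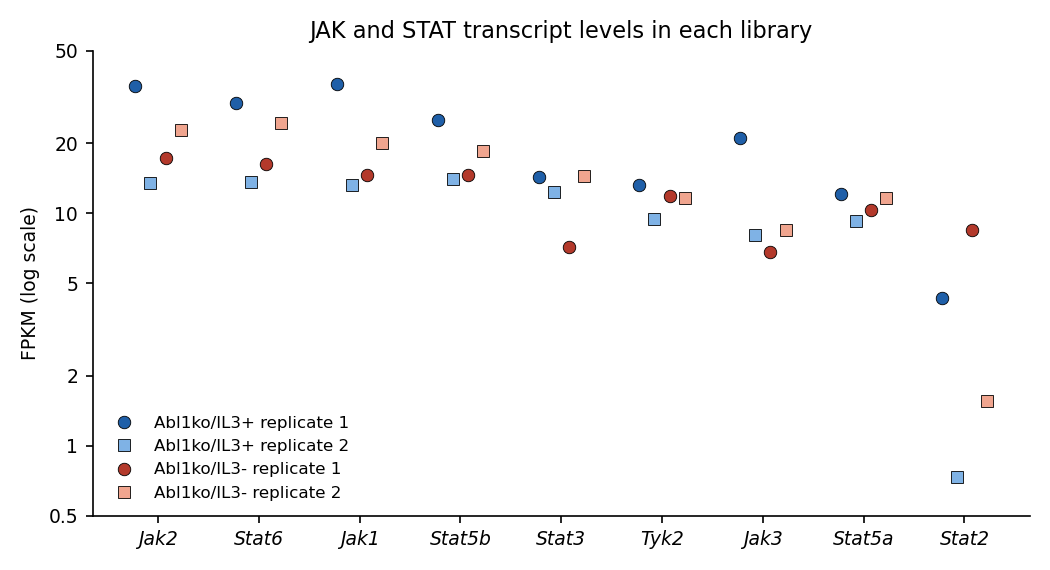
Level of each JAK and STAT gene in FPKM (log axis), one point per library, with Abl1ko/IL3+ in blue, Abl1ko/IL3- in red, replicate 1 as circles and replicate 2 as squares. Jak2, Stat6, Jak1 and Stat5b have the highest means, Stat2 runs from 0.735 to 8.48 FPKM, and Abl1ko/IL3+ replicate 1 is the highest library for Jak1, Jak2, Jak3, Tyk2, Stat5a, Stat5b and Stat6.

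No kinase or STAT gene passed the test between the cells without and with IL-3. By the quasi-likelihood test of edgeR, with p-values adjusted over all genes after Benjamini and Hochberg, 0 of 9 members passed 0.05, with adjusted p-values from 0.870 to 0.999, and 0 of 9 had an unadjusted p under 0.05. The background was as sparse: 0 of 16535 genes (0.0%) passed the adjusted threshold, with a lowest adjusted p of 0.335, and 978 (5.91%) had an unadjusted p under 0.05. DESeq2 called 271 genes (1.64%) and none of the members. With 2 libraries per group these p-values measure the spread between the libraries only. The members' median log2 fold change was -0.24, with 3 higher and 6 lower without IL-3, beside a median of -0.027 over all genes, and it was 0.18 without Abl1ko/IL3+ replicate 1, when Jak1, Jak2, Stat5b and Stat6 came to 0.25, 0.44, 0.10 and 0.43.

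**Figure D2:**
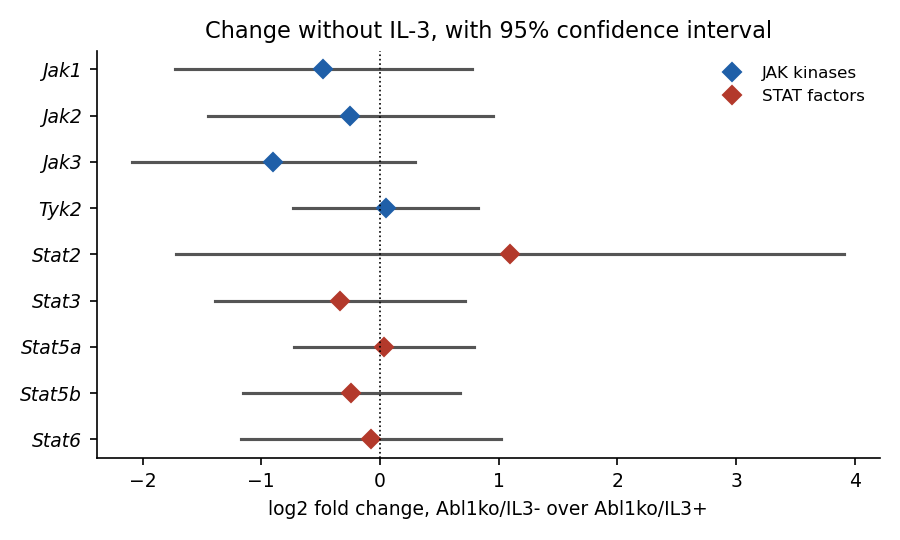
Fitted log2 fold change of each member, Abl1ko/IL3- over Abl1ko/IL3+, as points with 95% confidence intervals from the edgeR fit, and a line at 0. Every interval spans 0, the shortest being that of Stat5a, from -0.73 to 0.79, and the longest that of Stat2, from -1.72 to 3.91.

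Among the kinases, Jak2, the main kinase of the IL-3 receptor (ENSMUSG00000024789, chromosome 19, 29251828 to 29313080, plus strand, GRCm38), was at 185 and 84.5 CPM in Abl1ko/IL3+ replicates 1 and 2 and at 102 and 124 CPM in Abl1ko/IL3- replicates 1 and 2. CPM here is scaled by TMM factors, which correct for composition. Both libraries without IL-3 thus fell between those with it, and the log2 fold change was -0.25 with an SE of 0.47. Jak1, the partner kinase of many receptors (ENSMUSG00000028530, chromosome 4, 101152367 to 101265282, minus strand), had the same library order, at 270 and 119 CPM with IL-3 and 123 and 157 CPM without it. Its log2 fold change was -0.48 with an SE of 0.49. The 95% intervals ran from -1.45 to 0.95 for Jak2 and from -1.73 to 0.77 for Jak1.

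Jak3, the kinase bound to the common gamma chain (ENSMUSG00000031805, chromosome 8, 71676296 to 71690575, plus strand), had the lowest p of the members. It was at 117 and 54.1 CPM with IL-3 and at 42.8 and 49.0 CPM without it. The groups did not overlap, but Abl1ko/IL3+ replicate 2 was close to the libraries without IL-3. The log2 fold change was -0.90 with an SE of 0.46 and an unadjusted p of 0.110, the adjusted p being 0.870 in the same edgeR fit. Lower without overlap described 1 of 9 members and 17.9% of all genes, and higher without overlap 0 of 9 and 19.4%. In FPKM, which carries no TMM factor, Jak3 did overlap, at 21.0 and 8.09 with IL-3 against 6.84 and 8.47 without it. Jak3 shares 404 exon bases, 7.55% of its exon length, on the same strand with Insl3, which had 15 to 51 counts. Tyk2, the kinase of interferon receptors (ENSMUSG00000032175, chromosome 9, 21104068 to 21131243, minus strand), was at 94.2 and 81.2 CPM with IL-3 and 95.3 and 86.1 CPM without it. Its groups overlapped within a narrow range and the log2 fold change was 0.048 with an SE of 0.30. An antisense gene, 1700084C06Rik, covers 554 of its exon bases, and whether the counting used strand is not given in the sources used here.

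Of the STAT genes, the pair that IL-3 normally engages overlapped between the groups. Stat5a (ENSMUSG00000004043, chromosome 11, 100859351 to 100885169, plus strand) was at 89.6 and 82.3 CPM with IL-3 and 86.3 and 89.4 CPM without it. Its log2 fold change was 0.031 with an SE of 0.29. Stat5b (ENSMUSG00000020919, chromosome 11, 100780731 to 100850724, minus strand), which ends 8626 bases before Stat5a begins, was at 146 and 96.7 CPM with IL-3 and 94.4 and 111 CPM without it. Abl1ko/IL3+ replicate 1 was the high library and the other 3 lay together, for a log2 fold change of -0.24 with an SE of 0.35. The 95% intervals, from -0.73 to 0.79 for Stat5a and from -1.15 to 0.67 for Stat5b, bound what these libraries could have shown.

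Stat3, used by the IL-6 and IL-10 families and by G-CSF (ENSMUSG00000004040, chromosome 11, 100885098 to 100939540, minus strand), had another pattern. It was at 142 and 147 CPM with IL-3 and at 79.6 and 149 CPM without it, so that Abl1ko/IL3- replicate 1 alone was low. The log2 fold change was -0.34 with an SE of 0.41, and 0.048 without that library. Stat3 and Stat5a overlap by 72 bases on opposite strands. Stat6, the factor of IL-4 and IL-13 (ENSMUSG00000002147, chromosome 10, 127642986 to 127660957, plus strand), was at 136 and 75.0 CPM with IL-3 and 83.8 and 116 CPM without it, the library order of Jak1 and Jak2. Its log2 fold change was -0.078 with an SE of 0.42.

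Stat2, which joins interferon signalling together with IRF9 (ENSMUSG00000040033, chromosome 10, 128270559 to 128292849, plus strand), was at 26.7 and 5.48 CPM with IL-3 and at 58.9 and 10.1 CPM without it. Its counts were 1723, 298, 2817 and 584 in that order, so the low libraries were far above the floor of 3 counts. Both libraries numbered 1 were high and both numbered 2 were low. Within each number the library without IL-3 was the higher, by 2.20-fold and 1.84-fold. Across the numbers, Abl1ko/IL3- replicate 2 was 0.376-fold Abl1ko/IL3+ replicate 1, and Abl1ko/IL3- replicate 1 was 10.7-fold Abl1ko/IL3+ replicate 2. The replicates themselves differed 4.88-fold with IL-3 and 5.85-fold without it, which is more than the difference within either number. The log2 fold change was 1.10 with an SE of 1.09 (95% interval -1.72 to 3.91), and it was -0.68 without Abl1ko/IL3- replicate 1. Both libraries numbered 1 exceeded both numbered 2 for 2 of 9 members, Stat2 and Tyk2, and for 10.3% of all genes. What the replicate numbers stand for is not given. Irf9, on the list of STAT2 partners and targets, was at 2580 and 1438 counts with IL-3 against 954 and 1039 without it, an order that Stat2 did not follow.

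For most members the libraries with IL-3 differed more from each other than the groups did. The Abl1ko/IL3+ replicates were further apart than the group means for 8 of 9 members, all but Stat3, which compares with 67.6% of all genes. Replicate 1 exceeded replicate 2 by 2.27-fold for Jak1, 2.18-fold for Jak2, 2.16-fold for Jak3, 1.81-fold for Stat6, 1.505-fold for Stat5b and 1.16-fold for Tyk2, and Stat5a and Stat3 were at 1.09-fold and 0.969-fold. Jak1, Jak2, Stat5a and Stat6, 4 of 9 members, were highest in Abl1ko/IL3+ replicate 1 and lowest in replicate 2, as were 13.9% of all genes. For the same 4 members, and for 9.71% of all genes, the libraries followed the order of the summed macrophage and mast cell markers given above, although Stat5a varied little. The part of these marker genes in the members' values was not tested.

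Gene length moved with this difference. Among genes over 1 CPM in every library, sorted into 5 equal bins of exon length, the median log2 ratio of Abl1ko/IL3+ replicate 1 to replicate 2 rose from -0.73 in the shortest bin (57 to 1975 bases) through -0.26, 0.012 and 0.25 to 0.52 in the longest (7159 bases and over). Between the replicates without IL-3 the medians stayed from -0.044 to 0.041. The members are long genes, from 4402 exon bases for Stat6 to 9527 for Stat3, and lie in the upper 3 bins. Relative to the median of their own bin the log2 ratios of Jak1, Jak2, Jak3, Stat6 and Stat5b were 0.66, 0.88, 0.86, 0.85 and 0.34, with 15.9% to 34.7% of the genes of the bin showing a larger ratio. Stat2 stood 2.04 above its bin, with 3.88% of genes larger. Tyk2, Stat5a and Stat3 lay below their bins' medians, by values of -0.035, -0.13 and -0.57. Between the groups the bin medians of the log2 fold change ran from -0.10 to 0.059. The part of gene length in the members' values was not tested.

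**Figure D3:**
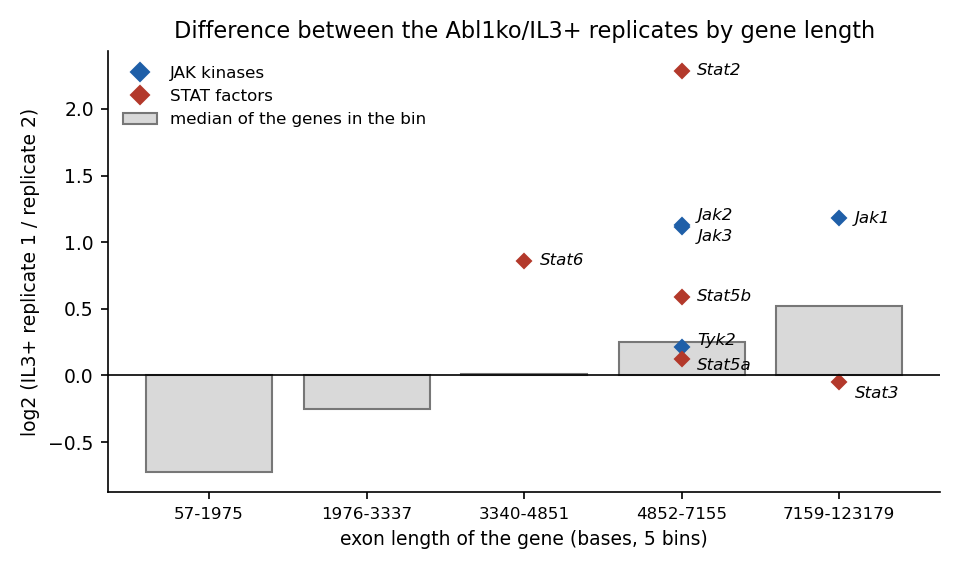
Log2 ratio of Abl1ko/IL3+ replicate 1 to replicate 2 (TMM CPM) in 5 bins of exon length in bases, with bars for the median of the genes in each bin and the members as named points at the centre of their bin. The bars rise from -0.73 to 0.52, Stat2, Jak1, Jak2, Jak3, Stat5b and Stat6 lie above their bars, and Tyk2, Stat5a and Stat3 lie below theirs.

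Within a library, ratios between members do not depend on the library's depth. The FPKM of the 4 kinases summed to 105.5 and 44.25 with IL-3 and to 50.6 and 63.1 without it, and that of the 5 STAT genes to 85.8 and 49.97 with IL-3 and to 56.8 and 70.6 without it. The kinase sum was 1.23-fold the STAT sum in Abl1ko/IL3+ replicate 1 and 0.886- to 0.894-fold in the other 3 libraries. Jak1 and Jak2 took 28.8% to 36.3% of the kinase sum each, and their ratio was 1.02 and 0.983 with IL-3 against 0.841 and 0.879 without it. Jak3 took 19.9% and 18.3% with IL-3 against 13.5% and 13.4% without it, so that its share was lower in both libraries without IL-3. Jak2 took 33.45% and 30.4% with IL-3 against 34.2% and 36.3% without it, a higher share in both. The shares are parts of 1 sum, so a lower Jak3 share leaves more for the other kinases. In CPM and FPKM the Jak2 groups overlapped. The shares of Jak1 and Tyk2 overlapped between the groups, Tyk2 taking 12.5% and 21.4% with IL-3 against 23.45% and 18.4% without it. No test was run on these shares. Among the STAT genes Stat6 and Stat5b took 25.7% to 34.7% each and Stat5a 14.1% to 18.5%, and Stat2 moved most, from 1.47% to 14.9%. Stat5b took 29.5% and 28.0% with IL-3 against 25.7% and 26.2% without it, a lower share in both. Stat2 is part of the same sum and took 14.9% in Abl1ko/IL3- replicate 1, which leaves less for the others. In CPM and FPKM the Stat5b groups overlapped. The other STAT shares overlapped between the groups. No background over all genes was made for shares. In CPM, 17.9% of all genes were lower and 19.4% higher without overlap. With 2 against 2 libraries, a full separation cannot go below a p of 0.333 in a two-sided exact permutation test.

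**Figure D4:**
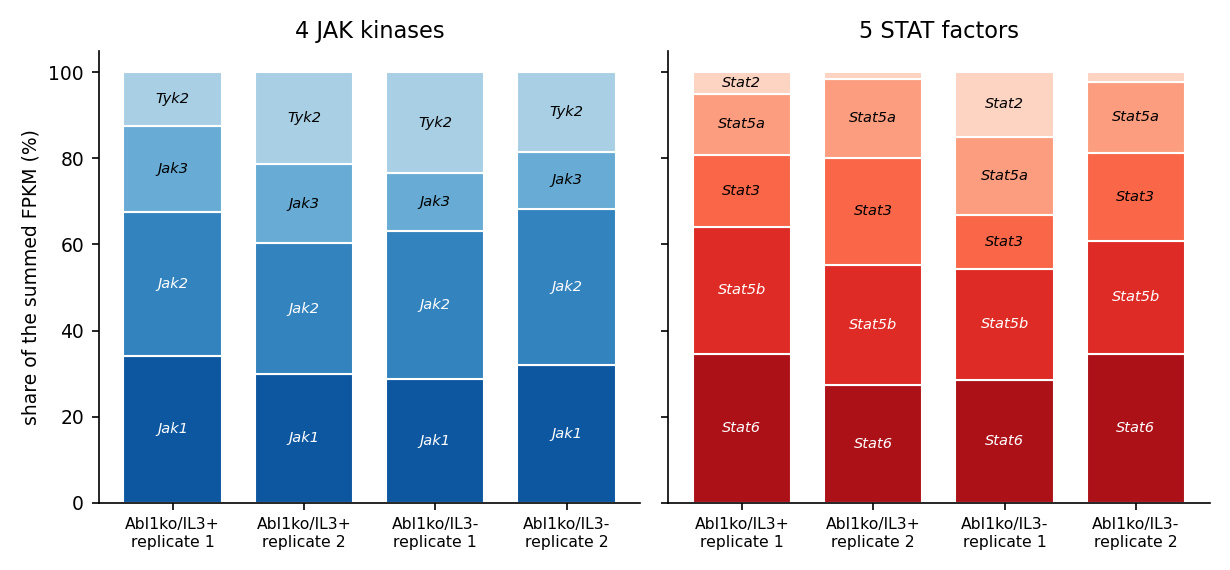
Share of each member in the summed FPKM of the 4 kinases (left) and of the 5 STAT genes (right), in percent, as stacked bars for each of the 4 libraries. Jak3 takes 19.9% and 18.3% with IL-3 against 13.5% and 13.4% without it, and Stat2 takes 14.9% in Abl1ko/IL3- replicate 1 against 1.47% to 5.05% elsewhere. The share of Jak2 is higher and that of Stat5b lower in both libraries without IL-3. Shares of 1 sum are tied to each other, and the FPKM groups of Jak2, Jak3 and Stat5b overlap.

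Stat5b exceeded Stat5a per length in every library, 2.09- and 1.51-fold with IL-3 and 1.41- and 1.59-fold without it. Abl1ko/IL3+ replicate 1 was again the highest, and the groups overlapped. The log2 ratio was 0.83 ± 0.33 with IL-3 and 0.58 ± 0.13 without it (SD, n = 2), a difference of -0.25 (exact permutation test, two-sided, p = 0.667, where 2 against 2 libraries cannot go below 0.333).

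Genes around the kinases gave 0 calls past the adjusted threshold in edgeR in each list. Over all lists, 8 of 92 genes tested that are no members had an unadjusted p under 0.05, which is 8.70% beside the 5.91% of all genes. DESeq2 called 1 of them, Il10ra. Timp1, among the 8, passed the filter only through the libraries without IL-3, where it was higher. Of 28 receptor genes 21 were tested, 2 being higher and 3 lower without IL-3 at an unadjusted p under 0.05, with a median log2 fold change of -0.32. The chains of the IL-3 receptor showed no shared direction. Il3ra, the alpha chain, was at 38.1 and 117 CPM with IL-3 and 102 and 58.7 CPM without it. Csf2rb, the common beta chain, was at 468 and 296 CPM with IL-3 and 324 and 55.5 CPM without it, and Csf2rb2, the mouse beta chain specific for IL-3, at 1411, 378, 485 and 463 CPM in the same order. Both beta chains were thus highest in Abl1ko/IL3+ replicate 1, as were Jak1 and Jak2, and Csf2rb was lowest in Abl1ko/IL3- replicate 2. Csf2rb and Csf2rb2 are close paralogs, so their split of reads is uncertain. Adjusted p-values of these chains in edgeR were 0.999, 0.924 and 0.905.

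The 3 receptor genes with a lower value include the common gamma chain, on which JAK3 acts. Il2rg was at 112 and 143 CPM with IL-3 and at 71.7 and 72.6 CPM without it, a log2 fold change of -0.83 with an SE of 0.31. Il4ra, the IL-4 receptor chain that leads to STAT6, was at 112 and 81.5 CPM against 44.9 and 56.9 CPM (-0.93, SE 0.35), and Il2rb, the IL-2 receptor beta chain, at 3.83 and 2.87 CPM against 0.543 and 1.31 CPM (-1.85, SE 0.69). The edgeR adjusted p of each was 0.841. In the receptor list 6 of 21 genes were higher and 7 lower without overlap between the groups, beside 19.4% and 17.9% of all genes. The 2 with a higher value were Il10ra, the IL-10 receptor chain, and Crlf2, the receptor of TSLP. Il10ra was at 4.67 and 5.30 CPM with IL-3 and 14.5 and 26.6 CPM without it (log2 fold change 2.05, SE 0.49, edgeR adjusted p 0.727, DESeq2 adjusted p 0.0153). Crlf2 was at 12.1 and 15.1 CPM against 31.0 and 31.3 CPM (1.20, SE 0.36, edgeR adjusted p 0.737).

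The inhibitors of the pathway, 20 of 20 tested, held 1 gene with a lower value at an unadjusted p under 0.05, and their median log2 fold change was -0.22. It was Pias3, the protein inhibitor of STAT3, at 16.7 and 7.27 CPM with IL-3 and 2.47 and 4.45 CPM without it (log2 fold change -1.79, SE 0.64, edgeR adjusted p 0.827). Cish, a feedback inhibitor that STAT5 switches on, was at 89.4 and 38.5 CPM with IL-3 and 68.1 and 132 CPM without it (0.65, SE 0.57). Its groups overlapped, as did those of Socs1, at 1.23 and 3.57 CPM with IL-3 and 1.82 and 2.27 CPM without it. Socs2 was at 22.4 and 30.3 CPM with IL-3 and 29.7 and 23.4 CPM without it, a log2 fold change of 0.011, and Socs3 at 15.2 and 13.3 CPM against 8.88 and 15.1 CPM. The edgeR adjusted p of these SOCS genes was 0.9753 to 0.999. Of the 14 adaptors and partners 1 had a higher value at that p, Sh2b1, an adaptor that binds JAK2, at 30.8 and 25.1 CPM with IL-3 and 58.7 and 46.3 CPM without it (0.91, SE 0.34, edgeR adjusted p 0.841).

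The lists of genes that STAT factors switch on are read against the 5.91% of all genes with an unadjusted p under 0.05. Of 20 STAT5 target genes 19 were tested and 0 had an unadjusted p under 0.05, with a median log2 fold change of 0.079. Among them Pim1, a serine/threonine kinase that IL-3 induces through STAT5, was at 392 and 283 CPM with IL-3 and 66.2 and 286 CPM without it. It was low in Abl1ko/IL3- replicate 1 alone, the library in which Stat3 was low too. Of the 16 STAT2 and interferon targets 12 were tested and 0 had an unadjusted p under 0.05, with a median of -0.065. Of 11 STAT3 targets 10 were tested and 1, Timp1, an inhibitor of metalloproteinases, had an unadjusted p under 0.05 (edgeR adjusted p 0.727). It had 0 counts in both libraries with IL-3 against 17 and 11 without it. That is at least 3.43-fold higher, as the lowest library without IL-3 over the floor of 3 counts per library. Timp1 passed the filter only through the libraries without IL-3, so it was tested only because it was higher there. Of 10 STAT6 targets 3 were tested and 0 had an unadjusted p under 0.05. The median log2 fold change was 0.43 for the STAT3 targets tested and -2.48 for the STAT6 targets tested. Those STAT6 targets, Ccl17, Ccl24 and Gata3, were at 0 to 9.45 CPM, and Gata3 had a higher value (1.54).

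Myeloid markers moved between the groups beside these values. The myeloid progenitor markers (12 of 12 in the table) summed to 3236 and 2924 CPM with IL-3 and 2002 and 1679 CPM without it. Mpo, at 1879 and 1477 CPM with IL-3 and 908 and 499 CPM without it, was the largest part of that sum. Of the 11 tested, 3 were lower without overlap, beside 17.9% of all genes. Their median log2 fold change was -0.38, and Csf1r had a higher value (0.95). The mature neutrophil markers (10 of 10) summed to 944 and 358 CPM with IL-3 and 963 and 5455 CPM without it. Ngp, at 687 and 240 CPM with IL-3 and 610 and 4003 CPM without it, makes up most of that sum. Of the 9 neutrophil markers tested 5 were higher without IL-3 at an unadjusted p under 0.05 and without overlap. Of all genes 5.91% had such a p in either direction, and 19.4% were higher without overlap. Camp, 1 of the 5, had 4 and 0 counts with IL-3 against 21 and 193 without it. It passed the filter only through the libraries without IL-3, so it was tested only because it was higher there. S100a8 was among the 5, at 1.15 and 0.386 CPM with IL-3 and 71.2 and 123 CPM without it, and the median log2 fold change of the 9 was 4.23. Cxcr2 and Mmp9 went the other way, with log2 fold changes of -0.91 and -0.33. The T and NK cell markers (6 of 10) summed to 174 and 229 CPM with IL-3 and 85.3 and 77.0 CPM without it, nearly all of it Nkg7, at 173 and 228 CPM against 83.1 and 71.4 CPM. Cd3d and Cd3g, which define T cells, went the other way at 0 to 2.93 CPM, and the median log2 fold change of the 4 tested was 0.76. The stromal markers (7 of 7) summed to 3.38 to 5.22 CPM. Every gene in the table had counts in some library, so no marker there could be at 0 in all 4. Listed markers absent from the table have no value here. The part of these lists in the values of the members was not tested.

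Genes with a like pattern were sought over the 4 libraries by the Euclidean distance of centred log2 CPM, and 4 libraries cannot single out a gene. Nearest to Jak3 were Rbm38, Hrh2 and Ubr3, at distances of 0.0643, 0.0900 and 0.0930, and nearest to Jak2 were Zfp345, Pdzd8 and Ccdc50, at 0.0436 to 0.0479. Nearest to Stat5b were Katnbl1, Cdk16 and Vps26b, at 0.0189 to 0.0395, and nearest to Stat5a were Gm49493, Ddx19b and Prkdc, at 0.0171 to 0.0211. The JAK and STAT members were left out of this search, so it does not tell how alike they are to each other.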

How the data were processed

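RNA-seq was run on 4 libraries, 2 of Abl1ko/IL3+ and 2 of Abl1ko/IL3-, grouped and numbered by the labels. The authors depleted total RNA of ribosomal RNA, aligned reads to GRCm38 with Rsubread and deposited raw counts per gene from featureCounts. The submitters' processing notes name STAR and Cuffdiff on mm10 instead. The authors also deposited FPKM values, which are the same counts per exon length and depth (implied lengths differed between libraries by at most 1.04-fold for 99% of 12946 genes). Versions, strand setting and the treatment of multi-mapping reads are not given in the sources used here.

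Counts were filtered with filterByExpr, scaled by TMM and tested on all genes together with edgeR 4.0.16 (quasi-likelihood F test, two-sided, Benjamini-Hochberg, threshold 0.05) in R 4.3.3. The step was tested on simulated data. Totals of 48953174 to 60382588 counts put the floor of 3 counts at 0.0465 to 0.0627 CPM, which covers counting error only. DESeq2 1.42.0, limma 3.58.1 on log2 FPKM, other scalings and filters, a replicate block and leaving out each library were alternatives. No pair of libraries agreed within sampling noise (smallest chi-square per degree of freedom 271).

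The members and all lists were chosen with earlier results of these data known. Named genes were the 9 members, list genes with an unadjusted p under 0.05 (at most 5 a list), IL-3 receptor chains, Cish, Socs1, Socs2, Socs3, Pim1 and the 3 nearest genes by distance. Insl3, 1700084C06Rik, Irf9 and the cell type markers were named after their values were seen. Promoters are from RefSeq and transcripts from GENCODE release M21.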

Additional observations from a re-analysis of the deposited data

How the results depend on the processing

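No JAK or STAT gene passed the adjusted threshold in any of the alternatives, while DESeq2 called 271 of all genes and 1 pathway gene, where edgeR called 0 of each. Leaving out 1 library at a time gave 0 to 15 calls over all genes, the 15 being without Abl1ko/IL3- replicate 1. It moved the members' median log2 fold change from -0.45 to 0.18, the latter without Abl1ko/IL3+ replicate 1. It also gave log2 fold changes of -0.95 to 0.25 for Jak1, -0.71 to 0.44 for Jak2, -1.35 to -0.22 for Jak3, -0.056 to 0.18 for Tyk2, -0.68 to 2.67 for Stat2, -0.85 to 0.048 for Stat3, -0.029 to 0.11 for Stat5a, -0.51 to 0.10 for Stat5b and -0.45 to 0.43 for Stat6, so that 8 of 9 members, all but Jak3, changed sign in at least 1 of 4 cases. In those fits the lone library of a group is assumed to vary like the other group. The other 9 settings changed no member's sign. The correlation of same-numbered deviations was -0.194. With 2 libraries a group it rests on 1 difference per group, so it cannot tell whether same-numbered libraries belong together. With the replicate block 548 genes had an unadjusted p under 0.05, against 978 without it, and 0 an adjusted one. The block changed no call of a member. The crossed pairing, chosen after seeing the data, gave 1136 and 0. With 2 libraries a group, the spread between libraries and not depth limits these values.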
